A study of Mus musculus with 28 samples.

Results

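The genes described here are 10 intestinal regulators and enterocyte-associated genes, taken as a named list: Cdx1, Cdx2, Isx, Hnf4g, Vil1, Lgals4, Cdh17, Clca1, Guca2a and Guca2b. They are 10 of 23712 genes in the deposited tables, and 7 of the 10 were among the 16499 genes that passed the filter on low counts. Cdx1, Guca2a and Guca2b did not pass it and are given as counts. Clca1 is in this mouse annotation the gene also named Clca3 or gob-5, a product of goblet cells, so the list is not restricted to enterocytes. Each member is measured from 1 transcript.

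The 28 libraries of mouse C57BL/6 cells fall into 9 groups. Induced hepatocyte-like cells, called iHep, were made from embryonic fibroblasts with retroviruses carrying Hnf4a and a Foxa factor, and they gave 6 libraries with Foxa1 (iHep_Foxa1), 4 with Foxa2 (iHep_Foxa2) and 6 with Foxa3 (iHep_Foxa3). The mutant Foxa3 del2 with Hnf4a gave 2 libraries (48h_Foxa3del2). The labels are not uniform on these cells: the titles give 48 h, the stage entry gives iHep, and iMEFs is the word in the design text. They do not state which residues del2 lacks. Cells 48 h after infection with Hnf4a and full-length Foxa1, Foxa2 or Foxa3 gave 2 libraries each (48h_Foxa1, 48h_Foxa2, 48h_Foxa3). The comparators were 2 libraries of hepatocytes freshly isolated by collagenase from mice 10 weeks old (Hep) and 2 of uninfected fibroblasts from embryos of 13.5 days post coitum (MEF). All infected groups carried Hnf4a, and no library of cells with an empty virus or Hnf4a alone was analysed here. The labels do not say whether replicates came from separate cultures or clones, so p-values measure the spread between these libraries, which may be technical.

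Cdx2 and Cdx1 are homeodomain transcription factors that set and keep intestinal identity in the endoderm behind the stomach. In adult gut epithelium Cdx2 works on many enhancers together with Hnf4a and its paralog Hnf4g, and genes of the brush border such as Vil1 are among the known Cdx2 targets. Hnf4a is shared by liver and gut, whereas Cdx2 is normally silent in hepatocytes and fibroblasts.

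Promoter sequences are shown for 2 members that reached high levels in iHep cells, Cdx2 and Vil1, and for both guanylin genes, which stayed at or near 0 counts. They are the 250 bases upstream of the RefSeq transcription start in the build GRCm38.p6, read along the gene's strand. RefSeq promoters were at hand for 6 of the 10 members. Capitals mark matches on either strand to TGTTTAC, the core of Foxa motifs, and to GTTAAT, the half-site of Hnf1 motifs; the motifs share no position in these windows. Cdx2 lies at chr5:147307250-147307499 on the minus strand, Vil1 at chr1:74409134-74409383 on the plus strand, Guca2a at chr4:119637482-119637731 on the plus strand and Guca2b at chr4:119658946-119659195 on the minus strand.

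Cdx2: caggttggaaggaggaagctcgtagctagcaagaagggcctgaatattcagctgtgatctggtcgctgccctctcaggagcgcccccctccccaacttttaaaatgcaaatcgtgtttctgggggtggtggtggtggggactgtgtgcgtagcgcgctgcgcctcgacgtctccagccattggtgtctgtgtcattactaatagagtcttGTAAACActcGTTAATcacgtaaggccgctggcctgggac
Vil1: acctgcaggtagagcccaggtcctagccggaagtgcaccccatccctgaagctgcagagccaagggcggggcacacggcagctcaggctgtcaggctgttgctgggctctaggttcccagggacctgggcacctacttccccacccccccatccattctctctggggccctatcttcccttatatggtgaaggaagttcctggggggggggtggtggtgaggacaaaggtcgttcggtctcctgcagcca
Guca2a: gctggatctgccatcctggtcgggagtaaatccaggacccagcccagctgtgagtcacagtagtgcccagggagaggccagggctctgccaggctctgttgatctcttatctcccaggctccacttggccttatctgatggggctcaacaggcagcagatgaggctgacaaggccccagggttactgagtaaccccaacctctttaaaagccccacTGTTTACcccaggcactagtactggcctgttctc
Guca2b: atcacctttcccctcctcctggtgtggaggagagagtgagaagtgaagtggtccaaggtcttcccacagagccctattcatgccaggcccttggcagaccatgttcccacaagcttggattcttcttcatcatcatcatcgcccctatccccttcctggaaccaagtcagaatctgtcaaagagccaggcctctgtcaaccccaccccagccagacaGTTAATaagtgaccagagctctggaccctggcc

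The Cdx2 window held the Foxa letters, in reverse orientation, 40 bases upstream of the start and the Hnf1 letters 30 bases upstream. Guca2a, which had at most 6 counts in any library, held the same Foxa letters 34 bases upstream, and Guca2b held the Hnf1 letters 33 bases upstream. The Vil1 window, like those of Lgals4 and Isx, held none of the motifs searched. TTTATG, a core of Cdx motifs, and CAAAGT, a half-site of Hnf4 motifs, were in none of the 6 windows. Over 32851 RefSeq promoter windows of the same length, 3.17% held TGTTTAC, 6.43% GTTAAT, 10.8% TTTATG and 12.6% CAAAGT, on either strand. A match describes letters and not occupancy.

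Library depth ranged from 14592820 to 51743266 assigned reads. Levels are CPM (counts scaled to the TMM-adjusted library size), given as mean ± SD with the group sizes above as n, and FPKM, which also divides by transcript length, is used where genes are compared with each other. Calls rest on edgeR's quasi-likelihood test, with p adjusted by Benjamini-Hochberg over all tested genes and a threshold of 0.05. The libraries split by the small RNA gene Rn7sk into a set above 10 CPM (all 6 full-length libraries at 48 h, 3 of iHep_Foxa1 and 5 of iHep_Foxa3) and a set below it (all others), so 48 h and MEF, and 48h_Foxa3del2 and 48h_Foxa3, each lie in different sets. In these contrasts the set and the group cannot be told apart without a model term. That term is estimated from iHep_Foxa1 and iHep_Foxa3 alone, the groups with libraries in both sets.

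Cdx2, Vil1, Lgals4 and Clca1 were higher in iHep cells than in MEF with each Foxa factor, while none of the members was called higher or lower at 48 h. Cdx1, Isx, Hnf4g, Guca2a and Guca2b, which mark the same tissue, stayed at or near 0 counts in nearly all iHep libraries. Cdh17 followed neither pattern. In bulk RNA, fewer cells of a type and less RNA per cell cannot be told apart, so these levels do not say whether all iHep cells or a few carried the transcripts.

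**Figure D1:**
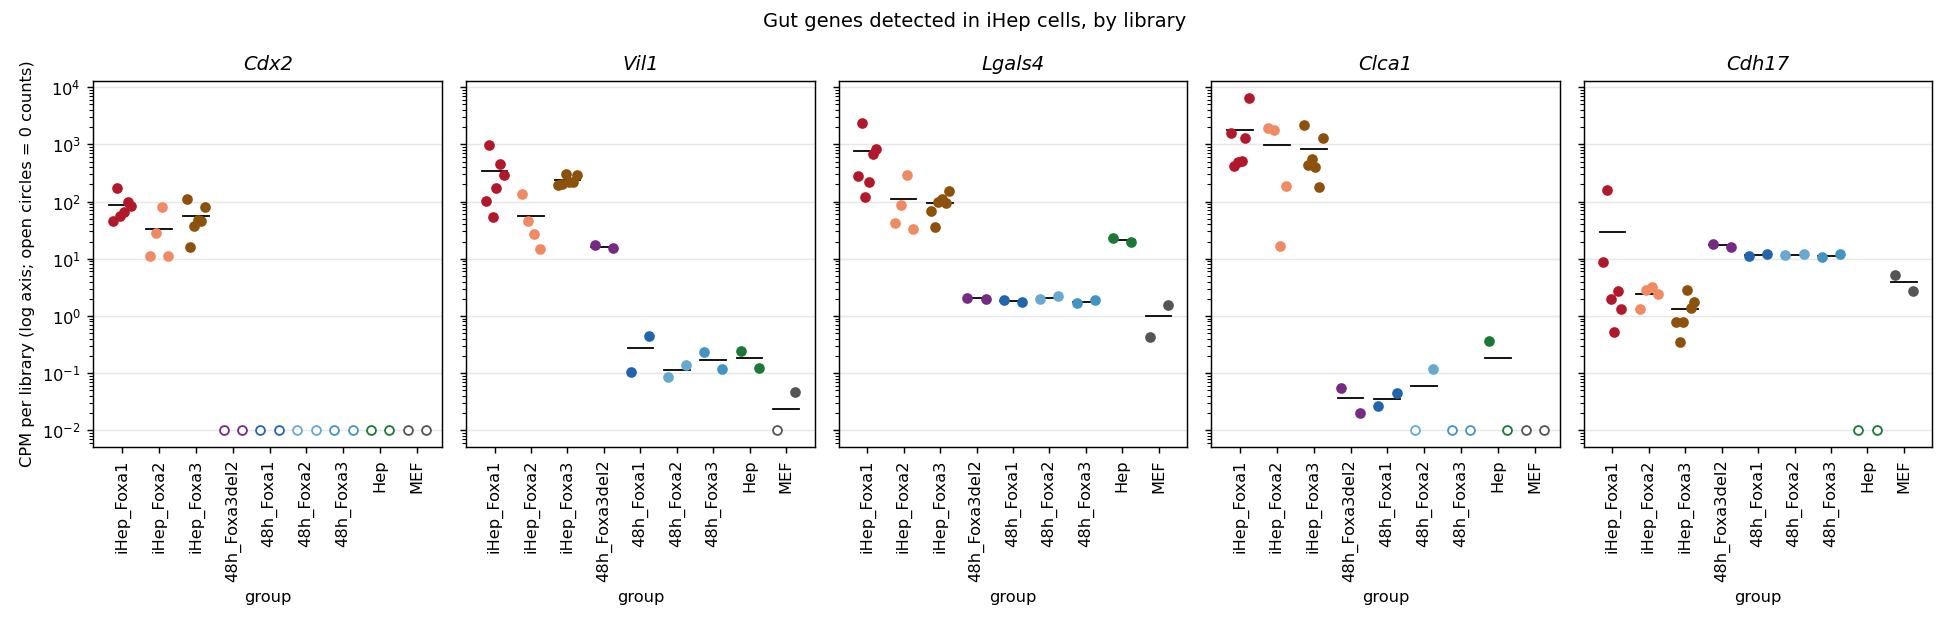
CPM on a log axis for Cdx2, Vil1, Lgals4, Clca1 and Cdh17, 1 point per library in each of the 9 groups, with a line at the group mean and open circles for libraries with 0 counts. Cdx2 lies between 10.99 and 169.9 CPM in the 16 iHep libraries and at 0 in the 12 others, whereas Cdh17 is between 10.7 and 18.2 CPM in the libraries titled 48 h and mostly under 4 CPM in iHep cells.

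Of the regulators, Cdx2 was the one detected throughout iHep cells. In iHep_Foxa1 it ranged over 46.4, 75.2 and 169.9 CPM (lowest, median, highest). In iHep_Foxa2 it measured 10.99, 28.3, 80.4 and 11.4 CPM, and in iHep_Foxa3 it ranged over 16.1, 47.3 and 109 CPM. The other 12 libraries had 0 Cdx2 counts, a total of 0 in each of 6 groups, so no iHep library overlapped any other. A count of 0 allows up to 3 counts over a group, which is 0.0286 CPM in 48h_Foxa3del2, 0.0366 CPM in 48h_Foxa1, 0.185 CPM in Hep and 0.0716 CPM in MEF. Against that floor Cdx2 was at least 1212-fold higher in iHep_Foxa1 than in MEF, at least 458-fold in iHep_Foxa2 and at least 788-fold in iHep_Foxa3 (adjusted p = 2.66e-05, 0.00012 and 3.11e-05). Floors and intervals in this account cover counting error only.

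The 3 iHep groups did not differ from each other in Cdx2 at the threshold. Cdx2 averaged 86.8 ± 44.9 CPM in iHep_Foxa1, 32.8 ± 32.8 CPM in iHep_Foxa2 and 56.4 ± 33.6 CPM in iHep_Foxa3. The ranges overlapped, with an adjusted p of 0.132 between iHep_Foxa1 and iHep_Foxa2, 0.491 between iHep_Foxa1 and iHep_Foxa3, and 0.325 between iHep_Foxa2 and iHep_Foxa3. In iHep_Foxa2 1 library, replicate 3, stood at 80.4 CPM, and without it Cdx2 passed the threshold between iHep_Foxa1 and iHep_Foxa2 (log2 fold change 2.36, adjusted p = 0.0458) and between iHep_Foxa2 and iHep_Foxa3 (-1.74, adjusted p = 0.0385).

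Cdx1, the paralog of Cdx2, had 5 counts over all 28 libraries, 2 of them in 2 iHep libraries, and its highest value was 2 counts in a 48h_Foxa3del2 library. Isx, an intestinal homeobox factor that represses genes of vitamin A uptake and conversion, had counts in 5 of 16 iHep libraries. These were 13, 24 and 2 counts in replicates 1, 2 and 3 of iHep_Foxa1, 3 counts in iHep_Foxa2 replicate 2 and 5 counts in iHep_Foxa3 replicate 1. Outside iHep cells there were 2 counts in 48h_Foxa2 and 1 in MEF. All 5 iHep libraries belong to the low Rn7sk set. The groups overlapped, and the adjusted p for Isx was 0.271 in iHep_Foxa1 against MEF.

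Hnf4g, the gut-enriched paralog of the Hnf4a that was introduced, had 28 counts in iHep_Foxa1 replicate 2, 1 count in replicate 6, and 0 in the other 14 iHep libraries. It had 12 and 11 counts in Hep, which is 1.47 and 1.37 CPM, and 0 in MEF. Hnf4g was therefore at least 55.9-fold lower in iHep_Foxa2 and at least 83.2-fold lower in iHep_Foxa3 than in Hep (adjusted p = 0.0148 and 0.0063), calls that the DESeq2 Wald test did not make (adjusted p = 0.294 and 0.261). For iHep_Foxa3 the call was also lost with the Rn7sk set as a term (0.064) and within the low set (0.153). For iHep_Foxa1 against Hep the adjusted p was 0.153, and without replicate 2 it was 0.00038 with a log2 fold change of -6.81.

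**Figure D2:**
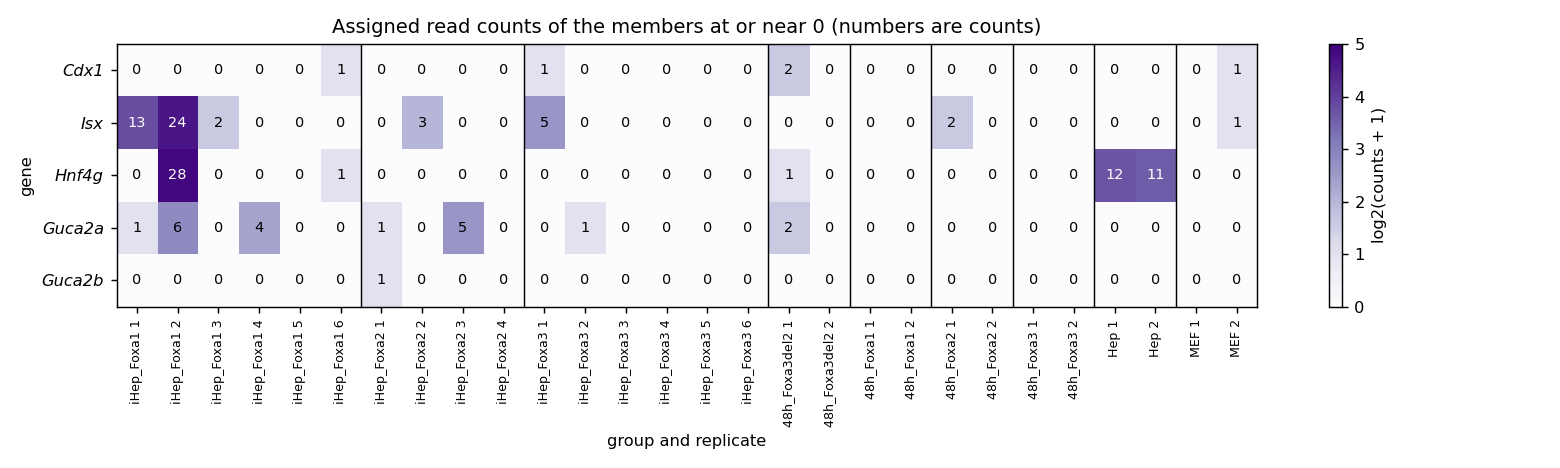
Assigned read counts of Cdx1, Isx, Hnf4g, Guca2a and Guca2b in each of the 28 libraries, ordered by group and replicate, with darker cells for more counts on a log2(counts + 1) scale. The highest cell is 28 counts (Hnf4g in iHep_Foxa1 replicate 2), and Guca2b has 1 count in all.

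Vil1 encodes villin, the actin-bundling protein of microvilli. In iHep_Foxa1 it ranged over 54.5, 227 and 962 CPM (lowest, median, highest). In iHep_Foxa2 it measured 133, 46.6, 26.6 and 14.7 CPM, and in iHep_Foxa3 it ranged over 197, 220 and 297 CPM. The iHep_Foxa3 libraries lay close together, at 238 ± 44.5 CPM, while the SD in iHep_Foxa1 was as large as its mean (338 ± 338 CPM). In the 6 full-length libraries at 48 h Vil1 lay between 0.0851 and 0.449 CPM, in Hep it was 0.245 and 0.125 CPM, and in MEF 0 and 0.0476 CPM. No iHep library overlapped these.

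Since MEF held 1 Vil1 count in all, the fold is given as a ratio of counts with its 95% exact interval. It was 14081 (2527 to 556164) for iHep_Foxa1, 2250.5 (404 to 88903) for iHep_Foxa2 and 9987 (1792 to 394480.3) for iHep_Foxa3, and Vil1 had the smallest adjusted p of the members in each (2.55e-06, 3.84e-05 and 2.71e-06). Against the matched 48 h cells Vil1 was 1216-fold higher with Foxa1, 489.8-fold with Foxa2 and 1377-fold with Foxa3.

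Lgals4 encodes galectin-4, a lectin that organises apical membrane rafts in gut epithelium. It ranged over 121, 483 and 2406 CPM in iHep_Foxa1, measured 42.5, 87.4, 286 and 33.4 CPM in iHep_Foxa2, and ranged over 36.1, 96.9 and 153 CPM in iHep_Foxa3. Unlike Cdx2, it was measurable in every group, at 1.65 to 2.22 CPM in the 6 libraries at 48 h, 23.5 and 19.6 CPM in Hep, and 0.431 and 1.57 CPM in MEF. The iHep libraries were all above these. Relative to MEF it was 756-fold higher in iHep_Foxa1, 112-fold in iHep_Foxa2 and 93.9-fold in iHep_Foxa3 (log2 fold changes 9.55 ± 1.44, 6.80 ± 1.30 and 6.55 ± 1.27 SE).

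Clca1, a secreted protein of goblet cells that acts on mucus, reached the highest level of the members. In iHep_Foxa1 it ranged over 416, 892 and 6542 CPM. In iHep_Foxa2 it measured 1892, 1759.7, 16.5 and 190.0 CPM, and in iHep_Foxa3 it ranged over 179, 488 and 2162 CPM. The other 12 libraries held 15 Clca1 counts together, at most 5 in any of them, and MEF held 0. Clca1 was at least 25199-fold, 13473-fold and 11648-fold higher in iHep_Foxa1, iHep_Foxa2 and iHep_Foxa3 than in MEF (adjusted p = 0.000158, 0.00036 and 0.000202). Within iHep_Foxa2 the library with the lowest Clca1, replicate 3 at 16.5 CPM, was the one with the highest Cdx2 and Lgals4.

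Against MEF, 4 of the 7 tested members were thus called higher and 0 lower for each of iHep_Foxa1, iHep_Foxa2 and iHep_Foxa3, where 20%, 15.3% and 22.9% of all tested genes were called higher and 19.9%, 15.5% and 23.7% lower. Against the 48 h cells with the same factor the same 4 genes were higher in each, beside 21.2%, 20.4% and 19.6% of all genes called higher and 20.7%, 19.7% and 21% lower. Members such as Cdx2 and Clca1 passed the filter on low counts through their iHep libraries alone, so the count describes them and does not test the list. These counts stayed at 4 against MEF in every alternative run.

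Per transcript length the members kept the order by mean that they had in CPM. Mean FPKM in iHep_Foxa1 was 638 for Clca1, 516 for Lgals4, 108 for Vil1, 41.1 for Cdx2 and 8.13 for Cdh17. In iHep_Foxa2 these were 343, 80.0, 18.8, 15.9 and 0.732 FPKM in the same gene order, and in iHep_Foxa3 they were 298, 67.2, 80.2, 27.6 and 0.402 FPKM. Clca1 was first by mean in all 3 groups, and Vil1 was above Lgals4 in iHep_Foxa3 alone. The SD of Clca1 over libraries was above its mean in iHep_Foxa1 and iHep_Foxa2 (849.9 and 356 FPKM), and differences between genes were not tested.

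**Figure D3:**
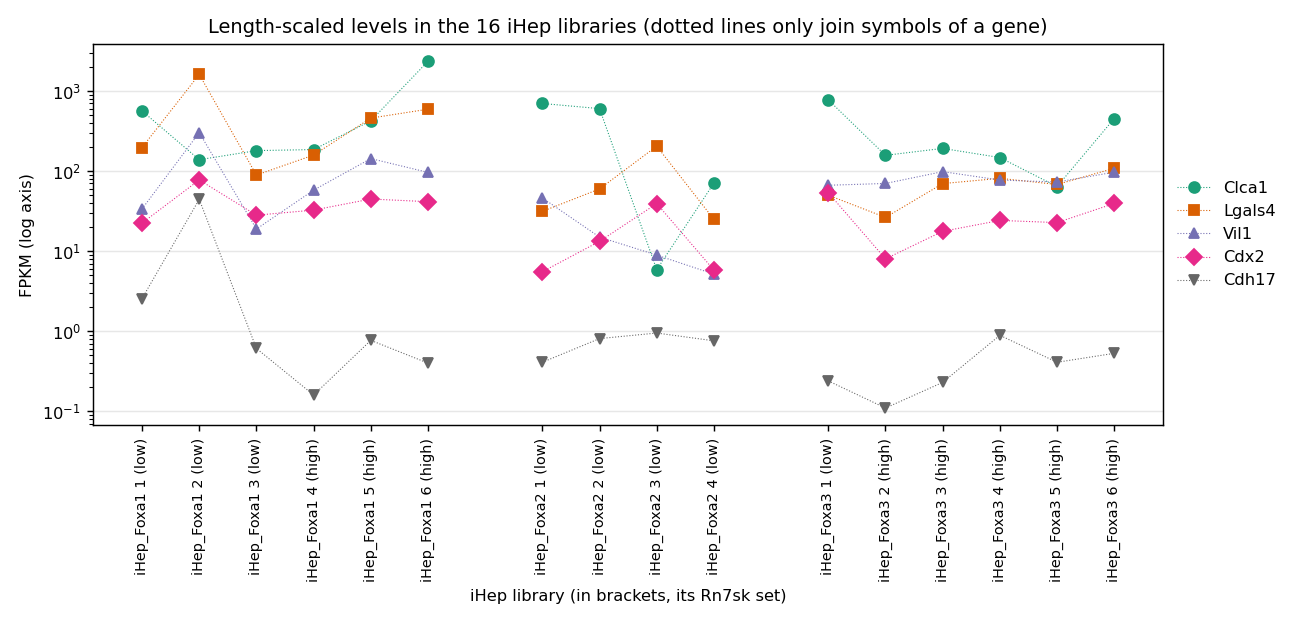
FPKM on a log axis of Clca1, Lgals4, Vil1, Cdx2 and Cdh17 in each iHep library, with the Rn7sk set of the library in brackets. Cdh17 stands at 44.3 FPKM in iHep_Foxa1 replicate 2 and at 0.110 to 2.56 FPKM in the other 15 libraries, and Clca1 falls to 5.87 FPKM in iHep_Foxa2 replicate 3.

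Cdh17 encodes liver-intestine cadherin, an adhesion molecule of enterocytes. In iHep_Foxa1 it measured 158 CPM in replicate 2, 8.61 CPM in replicate 1 and 0.522 to 2.73 CPM in the other 4 libraries. In iHep_Foxa2 it lay between 1.31 and 3.15 CPM, and in iHep_Foxa3 between 0.344 and 2.87 CPM. The early cells were higher than most of these, with 18.2 and 16.1 CPM in 48h_Foxa3del2 and 10.7 to 12.3 CPM in the 6 full-length libraries at 48 h, while Hep had 0 and 0 and MEF had 5.22 and 2.71 CPM.

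Cdh17 was 8.58-fold lower in iHep_Foxa3 than in 48h_Foxa3 (log2 fold change -3.10 ± 1.21 SE, adjusted p = 0.0452), beside 21% of all genes called lower, and all 6 iHep libraries lay below both 48 h libraries. That call was lost without replicate 1, 2, 3, 5 or 6 of iHep_Foxa3 (adjusted p = 0.0586 to 0.077) and with limma on FPKM (0.0917). It was also lost with a replicate block (log2 fold change -1.48, adjusted p = 0.522). Without 48h_Foxa3 replicate 1 or 2 the log2 fold change was -3.18 and -3.03. Those fits leave 1 library of 48h_Foxa3 and are not counted as keeping the call. Between iHep_Foxa1 and 48h_Foxa1 the direction rested on 1 library. The log2 fold change was 1.29 with adjusted p = 0.487 over all libraries, -1.95 with adjusted p = 0.0266 without iHep_Foxa1 replicate 2, and -2.99 with adjusted p = 0.00331 within the high Rn7sk set. For iHep_Foxa2 against 48h_Foxa2 it was -2.27 with adjusted p = 0.184, and the groups did not overlap. With the compared groups alone in the fit Cdh17 was called lower (-2.30, adjusted p = 0.00395). These groups lie in different Rn7sk sets. With the set as a term the log2 fold change was -6.42 (adjusted p = 0.00963). That term takes in iHep_Foxa1 replicate 2, at 158 CPM in the low set, and cannot decide this comparison. In the same fit 48h_Foxa3del2 against 48h_Foxa3 had -3.55, though their means were 17.1 and 11.3 CPM.

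Guca2a and Guca2b encode guanylin and uroguanylin, peptide ligands of the intestinal receptor guanylyl cyclase C. Guca2a had 18 counts over the 16 iHep libraries, at most 6 in any, 2 counts in 48h_Foxa3del2, and 0 in the other groups. Guca2b had 1 count in 28 libraries, in iHep_Foxa2 replicate 1. Their receptor, Gucy2c, was by contrast higher in iHep_Foxa1 (12.8 ± 15.3 CPM) and iHep_Foxa3 (1.63 ± 0.677 CPM) than in MEF (0.0956 CPM, adjusted p = 0.0017 and 0.0289). It was also higher in Hep (1.91 CPM) than in MEF. It measured 33.8 CPM in iHep_Foxa1 replicate 2. Over the other iHep libraries it ranged over 0.107, 1.34 and 30.4 CPM (lowest, median, highest). The rest of the guanylin secretion list, added after its values were seen, went both ways. In those libraries Cftr and Slc26a6 had medians of 0.228 and 3.19 CPM, against 1.93 and 5.06 CPM in MEF. Prkg2, Slc9a3r1 and Slc12a2 had medians of 50.7, 130 and 262 CPM, against 24.6, 33.7 and 85.1 CPM in MEF.

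The iHep groups differed from each other mainly in Lgals4 and Vil1. Of the 7 tested members, 2 were called higher in iHep_Foxa1 than in iHep_Foxa2, beside 7.1% of all genes called higher and 3.87% lower: Vil1, by 2.61 ± 0.66 (log2, SE, adjusted p = 0.0208), and Lgals4, by 2.75 ± 0.72 (adjusted p = 0.0243). The Lgals4 libraries overlapped, since iHep_Foxa2 replicate 3 at 286 CPM exceeded 3 of the 6 iHep_Foxa1 libraries. Both calls were lost with a term for the Rn7sk set (adjusted p = 0.0656 for Vil1 and 0.0695 for Lgals4), where the log2 fold changes were 2.65 and 2.88 and so no smaller. Both were also lost with the compared groups alone (0.191 and 0.194), within the low set (0.396 and 0.386) and without iHep_Foxa2 replicate 4 (0.0695 and 0.0813). Vil1 was also lost without iHep_Foxa2 replicate 3 (0.0631), and Lgals4 without replicate 1 or 2 (0.0607 and 0.0521).

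Between iHep_Foxa1 and iHep_Foxa3, 2 members were called higher, beside 4.41% of all genes called higher and 3.92% lower. Lgals4 was 8.05-fold higher (log2 3.01 ± 0.62 SE, adjusted p = 0.00654), and remained called without replicate 2 (2.18, adjusted p = 0.0188) and within the high Rn7sk set (2.56, adjusted p = 0.00475). It was not called with the compared groups alone in the fit (adjusted p = 0.0644) or within the low set (0.39). Cdh17 was 21.9-fold higher by means (log2 4.45 ± 1.08 SE, adjusted p = 0.0159). Without iHep_Foxa1 replicate 2 its log2 fold change was 1.21 (adjusted p = 0.191), and within the high set it was 0.10 (adjusted p = 0.927).

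Vil1 was lower in iHep_Foxa2 than in iHep_Foxa3 by a log2 fold change of -2.11 ± 0.64 SE (adjusted p = 0.0172), 1 member called lower beside 15.1% of all genes called lower and 16% higher. All 4 iHep_Foxa2 libraries lay below all 6 iHep_Foxa3 libraries. With a term for the Rn7sk set the log2 fold change was -2.19, no smaller in size, with adjusted p = 0.121. The adjusted p was 0.464 within the low set, and 0.0558 and 0.0552 without iHep_Foxa2 replicate 3 or replicate 4. The 4 iHep_Foxa2 libraries all belong to the low set and 5 of the 6 iHep_Foxa3 libraries to the high set. Clca1 passed the threshold in none of the 3 pairs.

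**Figure D4:**
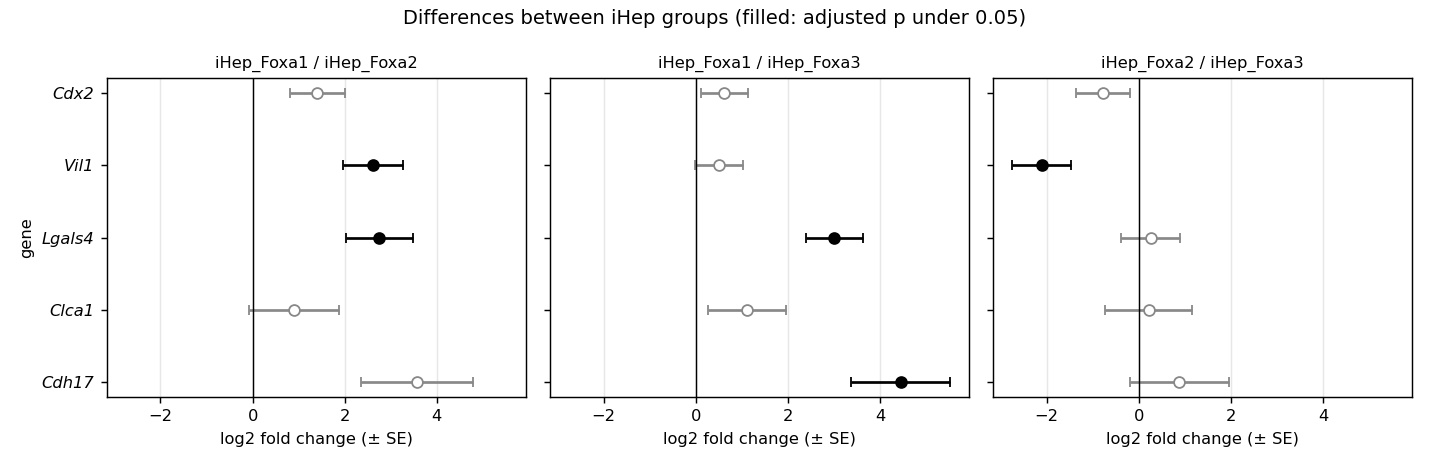
Log2 fold changes with SE of Cdx2, Vil1, Lgals4, Clca1 and Cdh17 between the iHep groups, filled where edgeR's adjusted p is under 0.05. Lgals4 is called in both comparisons of iHep_Foxa1 (2.75 and 3.01), and Vil1 is called at 2.61 and -2.11 in both comparisons of iHep_Foxa2.

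iHep_Foxa1 replicate 2 stood apart. It held the highest level over the 16 iHep libraries for 6 of the 7 tested members, all but Clca1, beside 11.3% of all tested genes with a count in any iHep library (1843 of 16350). Members such as Cdx2 and Isx passed the filter on low counts through iHep libraries, Isx with 24 counts in this one. The count describes the tested genes, here and in the lists that follow, and tests no list. The same library was highest for 9 of 16 brush border genes, 6 of 23 enterocyte digestive genes and 2 of 9 goblet cell genes. Among markers of other cells it was highest for 4 of 10 general epithelial, 3 of 7 cholangiocyte and 1 of 13 hepatocyte genes, and for 0 of 9 stomach, 0 of 7 enteroendocrine and 0 of 10 fibroblast genes. The part of these in the levels of the members was not tested. Genes picked after their values were seen show the size. Cdhr2, of the protocadherin links between microvilli, had 87.6 CPM there and at most 3.35 CPM in the other 15 iHep libraries. In the same brush border list Espn was lowest there, at 1.61 CPM against at least 3.87 CPM. Pdzk1 was lowest there too, at 0.941 CPM against at least 1.10 CPM. From the enterocyte digestive list Alpi, intestinal alkaline phosphatase, had 16.2 CPM against at most 0.84 CPM, and Krt20 had 231 against at most 27.4 CPM. From the goblet list Muc13 had 374 against at most 26.3 CPM. Other genes of these 2 lists were low there. Apoa4 had 0.0392 CPM against a median of 0.632 CPM in the other 15 libraries, and Zg16 had 10.1 against a median of 18.7 CPM. Creb3l1 had 1.76 CPM against at least 4.77 CPM.

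In the mutant, Vil1 was the 1 member called. It measured 17.1 and 15.4 CPM in 48h_Foxa3del2, against 0.230 and 0.116 CPM in 48h_Foxa3, a 94.0-fold difference (log2 6.51 ± 1.25 SE, adjusted p = 0.00539) beside 1.4% of all genes called higher and 1.58% lower. Without 48h_Foxa3 replicate 1 or 2 the adjusted p was 0.0975 and 0.127. The level in 48h_Foxa3del2 overlapped the lowest iHep_Foxa2 library (14.7 CPM). Cdx2 was at 0 counts in both mutant libraries, Lgals4 measured 2.06 and 2.02 CPM there, against 1.65 and 1.88 CPM in 48h_Foxa3, and Clca1 had 4 counts, against 0. The mutant and full-length libraries lie in different Rn7sk sets. With the set as a term Vil1 had a log2 fold change of 6.42 (edgeR adjusted p = 0.00266). That term is estimated from iHep libraries alone and cannot decide this comparison. With limma on FPKM Vil1 was not called (adjusted p = 0.0551). The stage labels of the mutant and full-length libraries also differ, and stage and mutation cannot be told apart. Marker lists moved beside Vil1. The 13 hepatocyte genes summed to 487 to 513 CPM in 48h_Foxa3del2, against 12.7 to 17.7 CPM in 48h_Foxa3, and the 10 fibroblast genes to 8033 to 9475 CPM, against 25372 to 26528 CPM. The 9 leukocyte genes summed to 58.2 to 65.3 CPM in the mutant, against 10.7 to 10.9 CPM, and the 16 brush border genes to 453 to 454 CPM, against 231 CPM in both 48h_Foxa3 libraries. Their part in the Vil1 difference was not tested.

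At 48 h with full-length factors 0 of the 7 tested members were called against MEF for each of Foxa1, Foxa2 and Foxa3, where 2.13%, 2.2% and 2.22% of all genes were called higher and 3.12%, 3.28% and 2.98% lower. In edgeR 0 members had an unadjusted p under 0.05 in these comparisons, and the DESeq2 Wald test called 0. Vil1 had 24, 10 and 16 counts with Foxa1, Foxa2 and Foxa3, against 1 in MEF. Cdh17 measured 11.8 ± 0.724, 11.7 ± 0.451 and 11.3 ± 0.822 CPM with Foxa1, Foxa2 and Foxa3, against 3.97 ± 1.77 CPM in MEF. These groups did not overlap. With the compared groups alone in the fit Cdh17 was called in each (adjusted p = 0.0237, 0.0309 and 0.0324).

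Adult hepatocytes carried little of this list. Of the 7 tested members Lgals4 alone was called higher in Hep than in MEF, at 23.5 and 19.6 CPM, against 0.431 and 1.57 CPM (log2 4.42 ± 1.22 SE, adjusted p = 0.00378), beside 24.3% of all genes called higher and 32.6% lower. Without MEF replicate 1 its adjusted p was 0.051. Compared with Hep, 5 members were higher in iHep_Foxa1 (Cdx2, Vil1, Lgals4, Clca1 and Cdh17), 4 in iHep_Foxa2 (without Cdh17) and 3 in iHep_Foxa3 (also without Lgals4), beside 35.3%, 35.2% and 35.3% of all genes. None was lower in iHep_Foxa1, beside 24.8% of all genes, and Hnf4g was the 1 member called lower in iHep_Foxa2 and iHep_Foxa3, beside 25.4% and 26.7%. Lgals4 was 35.1-fold higher in iHep_Foxa1 than in Hep, 5.21-fold in iHep_Foxa2 (adjusted p = 0.0423) and 4.36-fold in iHep_Foxa3 (adjusted p = 0.0566, and 0.0295 in the DESeq2 Wald test). The iHep_Foxa2 call held in 6 of 14 alternatives. It was lost with DESeq2 size factors, without the filter, with the compared groups alone, within the low set, without iHep_Foxa2 replicate 3 and without Hep replicate 1 or 2 (adjusted p = 0.0639 to 0.192). Cdh17 had 0 counts in Hep and counts in all 16 iHep libraries, and its calls depended on the fit. In iHep_Foxa1 the adjusted p was 0.00566, and the call was lost with the compared groups alone (0.101) and with limma on FPKM (0.08). Without Hep replicate 1 the log2 fold change was 12.8, but that fit leaves 1 Hep library and is not counted as keeping the call. Cdh17 was called higher with the compared groups alone and by the DESeq2 Wald test in iHep_Foxa2 (0.00241 and 0.00179). The same held in iHep_Foxa3 (0.00904 and 0.00563).

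The wider intestinal programme was read from gene lists beside the members. Over all tested genes 20%, 15.3% and 22.9% were called higher than MEF in iHep_Foxa1, iHep_Foxa2 and iHep_Foxa3, and 19.9%, 15.5% and 23.7% lower. Genes near 0 outside iHep cells passed the filter through their iHep libraries, and those near 0 everywhere were not tested, so list counts describe the tested genes alone. Of 19 tested gut regulators 11 were higher and 2 lower than MEF in iHep_Foxa1, 8 and 2 in iHep_Foxa2, and 10 and 2 in iHep_Foxa3, with median log2 fold changes of 2.90, 2.76 and 2.55 where the median over all genes was 0.08, 0.06 and 0.05. Klf5, a Krüppel-like factor of proliferating gut epithelium, measured 75.3 ± 37.3, 66.3 ± 25.6 and 69.7 ± 33.4 CPM in iHep_Foxa1, iHep_Foxa2 and iHep_Foxa3, against 4.97 CPM in MEF. Sox9, a factor of crypts and also of bile ducts, measured 113 ± 53.6, 62.8 ± 51.7 and 116 ± 26.8 CPM, against 19.8 CPM in MEF. Of the regulators that rose, 6, 3 and 4 were also higher in Hep than in MEF, among them Gata4, Gata6 and Nr1i2.

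Brush border genes were called beside Vil1. Of 16 tested, 10 were higher in iHep_Foxa1 and 0 lower, 7 and 0 in iHep_Foxa2, and 8 and 1 in iHep_Foxa3, with median log2 fold changes of 3.97, 3.41 and 2.85, or 3.97, 2.03 and 2.51 with genes at 0 counts set at their bound. Pls1, the microvillar actin bundler plastin 1, measured 149 ± 75.2, 32.2 ± 18.0 and 190.2 ± 45.8 CPM, against 1.004 CPM in MEF. Ezr, which ties actin to the membrane, measured 743 ± 226, 668 ± 305 and 557 ± 173 CPM, against 70.2 CPM. Vill, a villin-like protein, measured 231 ± 84.7, 169 ± 41.0 and 214 ± 79.5 CPM, against 14.2 CPM.

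Enterocyte digestive genes were called in both directions. Of 23 tested of 26 listed, 7 were higher and 6 lower in iHep_Foxa1, 4 and 6 in iHep_Foxa2, and 6 and 7 in iHep_Foxa3, beside 15.3% to 23.7% of all tested genes in each direction. Their median log2 fold changes were 2.60, 1.82 and 0, or 0.22, 0.75 and 0 with genes at 0 counts set at their bound. Rbp2, the retinol carrier of enterocytes, measured 88.2 ± 107, 38.2 ± 29.5 and 13.2 ± 9.51 CPM, against 0 in MEF. Anpep, aminopeptidase N, was lower at 0.883 ± 0.493, 0.968 ± 0.312 and 0.586 ± 0.315 CPM, against 22.8 CPM in MEF, and Enpep had 0, 0 and 1 counts, against 333 in MEF.

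Part of the goblet cell list was called beside Clca1. Of 13 listed, 9 were tested, and 7 were higher and 1 lower in iHep_Foxa1, 3 and 1 in iHep_Foxa2, and 6 and 1 in iHep_Foxa3. The 4 untested genes were at or under 0.512 CPM in every iHep library. Tff3, a secreted trefoil peptide, measured 1174 ± 1380.3 CPM in iHep_Foxa1, 110 ± 121 CPM in iHep_Foxa2 and 380 ± 229 CPM in iHep_Foxa3, against 0.0239 CPM in MEF. Zg16, a lectin of goblet granules, measured 76.9 ± 126, 86.1 ± 95.6 and 19.7 ± 22.8 CPM, against 0 in MEF. Spdef, a factor of goblet cell maturation, measured 8.28 ± 6.48 CPM in iHep_Foxa3, against 0.0238 CPM. Creb3l1 was the 1 lower gene in each. Muc2 and Agr2, picked after their values were seen, had medians of 0.726 and 0.0992 CPM over the iHep libraries other than iHep_Foxa1 replicate 2. Their highest values there were 4.82 and 37.2 CPM.

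Lists of other gut lineages held many genes too low to test. Of 12 colonocyte genes 7 were tested and 3, 2 and 3 were higher, with Scnn1b, a subunit of the epithelial sodium channel, at 98.3 ± 90.7, 13.9 ± 13.5 and 37.7 ± 19.6 CPM, against 0 in MEF. Of 11 Paneth cell genes 3 were tested, and the 8 others were at or under 0.217 CPM in every iHep library. Of the 3, 2, 1 and 1 were higher, with the antimicrobial lectin Reg3g at 170 ± 165, 8.17 ± 9.45 and 8.32 ± 10.2 CPM, against 0, and Lyz1 was lower in each. Of 14 enteroendocrine genes 7 were tested and 1, 0 and 2 were higher, a share no larger than over all genes in the first 2 groups. Of 10 crypt stem cell genes 2, 3 and 3 were higher and 4, 2 and 2 lower, with Lgr5 at 0.587 ± 0.430, 0.779 ± 0.244 and 0.376 ± 0.193 CPM, against 52.5 CPM in MEF. Of 6 tuft cell genes 3 were tested, with 0 higher and 2, 1 and 2 lower. Beside these, 15.3% to 23.7% of all tested genes were called in each direction, and no list was tested against that share.

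**Figure D5:**
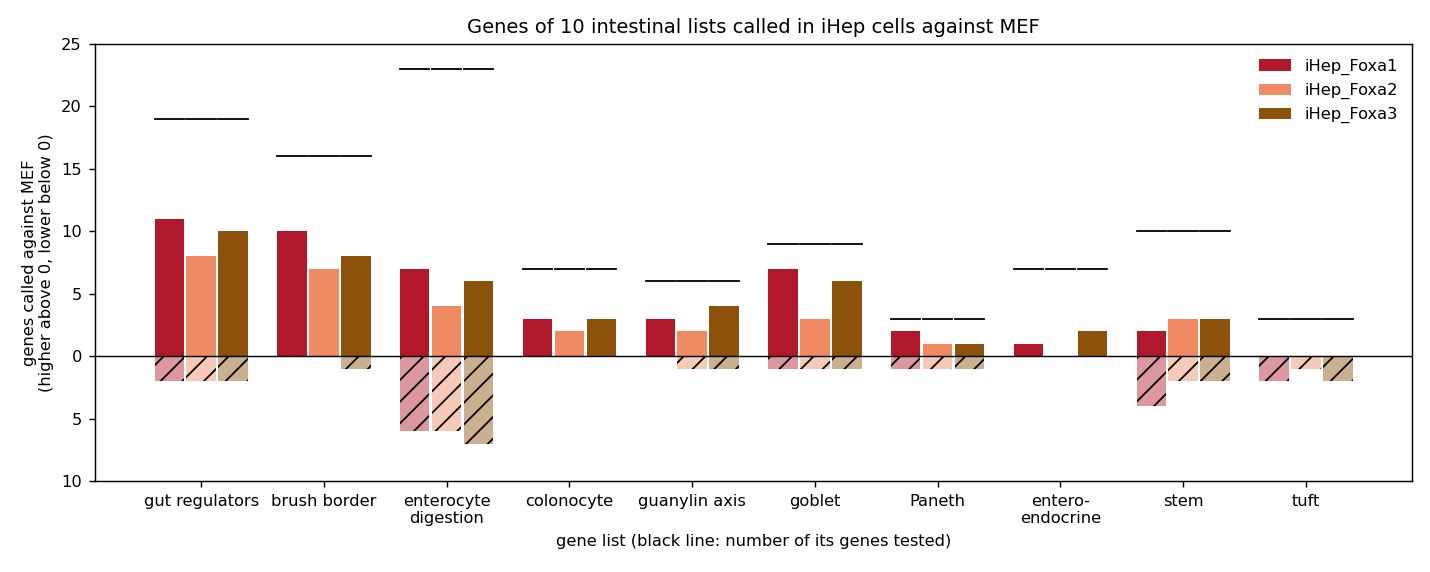
Number of genes of 10 intestinal lists called higher (solid, above 0) or lower (hatched, below 0) in iHep_Foxa1, iHep_Foxa2 and iHep_Foxa3 against MEF, with a black line at the number tested; genes too low to test are not drawn. Brush border genes are higher for 10, 7 and 8 of 16, whereas enterocyte digestive genes are split between 7, 4 and 6 higher and 6, 6 and 7 lower of 23.

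Markers of other epithelia moved in the same libraries. Of 13 stomach genes 9 were tested, and 4, 4 and 3 were higher than MEF in iHep_Foxa1, iHep_Foxa2 and iHep_Foxa3, of 7 cholangiocyte genes 5, 6 and 4, of 10 general epithelial genes 8, 8 and 7, and of 13 hepatocyte genes 7, 6 and 5. The 13 hepatocyte genes summed to 6626 to 34897 CPM in iHep_Foxa1, 2529 to 7434 CPM in iHep_Foxa2 and 10803 to 28363 CPM in iHep_Foxa3, against 236901 to 254699 CPM in Hep and 15.4 to 19.4 CPM in MEF. Fibroblast genes were lower for 9, 8 and 10 of 10, and leukocyte genes for 9 of 9 in each. The part of these in the levels of the members was not tested.

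Over the 28 libraries the genes whose log2 CPM followed Cdx2 most closely, by Pearson's r across all tested genes, were Aim2 (0.988), Gcnt3 (0.986), Mal (0.979), Bcas1 (0.978) and Abcc8 (0.977). Gcnt3, a glycosyltransferase of mucin sugars, averaged 455, 159 and 230 CPM in iHep_Foxa1, iHep_Foxa2 and iHep_Foxa3, against 0.0238 CPM in MEF. Of the members Clca1 came 29th by this measure (r = 0.958), Lgals4 123rd (0.919) and Vil1 140th (0.912), while Cdh17 (-0.15) and Hnf4g (-0.13) did not follow it. The libraries share the step between iHep and all other cells, so these r values mostly restate it. For Cdh17 the closest genes were B4galt6 (0.884) and Igsf3 (0.872).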

How the data were processed

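Sequencing used a stranded mRNA library kit, per the labels' protocols, and the submitters' processing notes name BWA 0.7.12 and mm9. The quantifier and its annotation: not given in the sources used here. Per the file headers, the authors deposited an expected count and an FPKM value for each of 30710 transcripts. Expected counts were summed per gene symbol, rounded and analysed with edgeR 4.0.16 in R 4.3.3 (TMM, filterByExpr, robust quasi-likelihood fit with 1 coefficient per group over all 28 libraries and 19 residual degrees of freedom). Rows without a gene symbol took 0.609% to 3.21% of reads and were left out. SE is the log2 fold change divided by the square root of F. Fitted folds of genes at 0 depend on a prior count, so bounds against 3 counts over the group are given.

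The fits were first tested on simulated data with the same spread set for every gene and changes put only into well-counted genes. That does not cover members at 0 counts in a group. The members and gene lists were chosen with earlier results of these data known. For each list, the text could name at most 4 called genes by smallest adjusted p and at most 4 by highest mean CPM. Genes said to be picked after their values were seen are outside that rule. Genes most like Cdx2 or Cdh17 were the 5 with the highest Pearson's r of log2 CPM. Samples with the same replicate number did not deviate together (r over 0.1 in 3 of 80 pairs, range -0.177 to 0.209), so the numbers were taken not to pair samples. Alternatives were DESeq2 1.42.0 size factors and Wald test, limma 3.58.1 on log2(FPKM + 1), no filter, the compared groups alone, a replicate block, the Rn7sk set, and each library left out. RefSeq promoters are on a later build than the files, so no coordinates of the files were used.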

Additional observations from a re-analysis of the deposited data

Results flagged for a closer look

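In 20 sets of libraries of a group examined for a member, 5 held a library far from the others. The cut-offs flag about 1 in 20 independent sets by chance if values are normally distributed. Some sets here are skewed or mostly 0 and several flags share 1 library, so that rate cannot be applied to them. In iHep_Foxa1 replicate 2 the flagged values were Lgals4 at 2406 CPM, Cdh17 at 158 CPM and Hnf4g at 1.10 CPM, each far above the other 5 libraries of its group. Clca1 at 6542 CPM in iHep_Foxa1 replicate 6 and Isx at 0.165 CPM in iHep_Foxa3 replicate 1 stood out in the same way, the Isx value being 5 counts beside 5 libraries at 0.

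In the main fit 5 comparisons of a member between iHep groups were called by edgeR's test of the difference itself. Beside them, 3.87% to 16% of all tested genes were called in each direction. Each of the 5 calls was lost in some alternatives. Vil1 and Lgals4 had log2 fold changes of 2.61 and 2.75 in iHep_Foxa1 against iHep_Foxa2. Lgals4 and Cdh17 had 3.01 and 4.45 in iHep_Foxa1 against iHep_Foxa3, and Vil1 had -2.11 in iHep_Foxa2 against iHep_Foxa3.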

How the results depend on the processing

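Counts of called members in iHep cells against MEF or 48 h cells stayed within 1.5 times in all 91 alternatives. Of the counts over every comparison, 221 stayed within that range and 29 did not. With the replicate block, iHep_Foxa2 against Hep had 3 called members in place of 5, iHep_Foxa1 against iHep_Foxa2 had 0 in place of 2 and iHep_Foxa1 against iHep_Foxa3 had 1 in place of 2. The replicate block also ended the Hnf4g calls in iHep_Foxa2 and iHep_Foxa3 against Hep (adjusted p = 0.0557 and 0.0504) and the Lgals4 call in iHep_Foxa2 against Hep (0.108). It ended the Cdh17 call in iHep_Foxa3 against 48h_Foxa3 too (0.522). With the Rn7sk set as a term iHep_Foxa1 against iHep_Foxa2 had 0 and iHep_Foxa1 against iHep_Foxa3 had 1. In that setting iHep_Foxa2 against iHep_Foxa3 had 0 in place of 1, and Hep against MEF had 3 in place of 1. Within the low set alone the 3 iHep pairs had 0, 0 and 0, and within the high set iHep_Foxa1 against iHep_Foxa3 had 1. With the compared groups alone there were 0 for iHep_Foxa1 against iHep_Foxa2 and against iHep_Foxa3, 1 for each 48 h group against MEF in place of 0, 2 for 48h_Foxa3del2 against 48h_Foxa3 in place of 1, and 3 for Hep against MEF. With limma iHep_Foxa1 against iHep_Foxa3 had 1 and the mutant 0, and with DESeq2 Hep against MEF had 2. Leaving out 1 library gave 0 to 3 in iHep_Foxa1 against iHep_Foxa2, 1 to 2 against iHep_Foxa3, 0 to 1 in iHep_Foxa2 against iHep_Foxa3, 0 to 1 for the mutant and 0 to 1 for Hep against MEF. Cdh17 in iHep_Foxa1 against 48h_Foxa1 reversed to -2.99 in the high set alone and -1.95 without iHep_Foxa1 replicate 2. The cause was not tested. Cdx1, Guca2a and Guca2b, with at most 6 counts in any library, were too low to test at this depth.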
